A study of Mus musculus with 18 samples.

Results

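The 8 genes described here encode proteins best known from the granules and cytosol of neutrophils. S100a8, S100a9, Lcn2, Camp, Ngp, Ltf, Mpo and Elane were followed in cultured mouse basophils, out of 19057 genes that the array annotation names with a probe of 1 symbol. Members were found by their gene symbol, which 12 probes carried, in the table of signals that had not been normalized. The genes were chosen by their signals on these same arrays, with earlier results in view, and the comparison that prompted the choice was not recorded. Differences and adjusted p-values of the members are therefore given as a description, and nothing is drawn from how many of them passed a threshold.

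RNA of basophils that had been grown from bone marrow of C57BL/6J animals, 4 to 6 weeks old, was hybridised to 18 single-colour Illumina bead arrays, 3 in each of 6 groups. The groups were ST2KO cells after IL-33 for 4 h, ST2KO cells activated through IgE for 4 h, unstimulated ST2KO cells, wild-type (WT) cells after IL-33 for 4 h, WT cells activated through IgE for 4 h, and unstimulated WT cells. IL-33 is a cytokine released by damaged tissue, and ST2, which the ST2KO cells are labelled as lacking, is its receptor. Activation through IgE engages the high-affinity IgE receptor of basophils. All 6 groups share the strain, the age range and growth in culture. The labels do not say whether arrays with different numbers came from different mice or cultures, and the p-values therefore reflect spread among arrays that may be technical. The number of arrays limits the precision throughout. The annotation names 0 probes for Il1rl1, the gene of ST2, so the genotype labels were not checked against their own gene.

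Neutrophils make these proteins at different stages of their development. Myeloperoxidase (Mpo) and neutrophil elastase (Elane) fill the primary granules, while lactoferrin (Ltf), the cathelicidin peptide precursor (Camp), neutrophilic granule protein (Ngp) and lipocalin 2 (Lcn2) belong to the secondary granules. S100a8 and S100a9 pair into calprotectin, an abundant cytosolic protein that binds calcium and other metals and acts as an alarmin once released. Lcn2 and the S100 genes are also switched on by inflammatory signals in other cell types, and lipocalin 2 withholds iron from bacteria by binding their siderophores.

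Between 14587 and 15741 of 45281 probes were above background on an array, that is at a detection p-value under 0.05, and replicate arrays of a group correlated at 0.981 to 0.994. The basophil protease genes Prss34 and Mcpt8 and the IgE receptor gene Fcer1a were above background on all 18 arrays, with signals of up to 25632, 10636 and 18675. Among markers of mature neutrophils, 16 of 21 had a probe and 13 of those entered the test. Csf3r, the receptor for the neutrophil growth factor, did not exceed a signal of 123. Others were clearly present, with Clec4d, Ncf1, Ncf4 and Retnlg above background on all 18 arrays at up to 2772, 1259, 3472 and 329, and Cxcr2, a chemokine receptor, on 12 at up to 287. Of 21 other genes of the secondary and tertiary granules 7, among them Cd177, Mmp8, Olfm4 and Cybb, were above background on no array, while Chil3, Pglyrp1 and Cyba were on all 18, at up to 6971, 3189 and 10019. On the list used for primary granules Bpi and Clec12a were above background on no array. Ctsg, Serpinb1a, Ctsc, Cst7, Srgn and Lyz2 of that list were on all 18, at up to 4807, 3711, 3421, 3131, 14819 and 4038. The RNA came from whole cultures, in which fewer cells of a type and less RNA per cell cannot be told apart.

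The DNA before the start site is shown for the 3 members that were above background on 16 or more arrays, because Lcn2 differed between groups and because S100a8 and S100a9, which the RefSeq annotation of GRCm38.p6 places next to each other on chromosome 3 with 0 protein-coding genes between them, varied together. Each run holds the 250 bases before the RefSeq start, 5′ to 3′ on the strand of the gene. Capitals mark matches on either strand to a loose NF-kB site (GGG, any 5 bases, CC) or a loose C/EBP site (TTGCNNAA). Lcn2 lies at chr2:32387740-32387989 on the minus strand, S100a8 at chr3:90668821-90669070 on the plus strand and S100a9 at chr3:90695722-90695971 on the minus strand.
Lcn2: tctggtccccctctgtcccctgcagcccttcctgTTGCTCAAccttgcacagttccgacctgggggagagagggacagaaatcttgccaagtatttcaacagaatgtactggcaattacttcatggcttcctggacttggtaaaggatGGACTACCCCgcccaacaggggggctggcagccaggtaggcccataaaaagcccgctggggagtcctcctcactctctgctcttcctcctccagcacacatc
S100a8: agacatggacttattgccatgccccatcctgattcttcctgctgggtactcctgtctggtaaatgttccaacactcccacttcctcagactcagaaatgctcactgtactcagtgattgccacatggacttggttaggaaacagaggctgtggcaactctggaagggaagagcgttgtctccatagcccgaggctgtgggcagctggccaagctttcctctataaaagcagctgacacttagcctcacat
S100a9: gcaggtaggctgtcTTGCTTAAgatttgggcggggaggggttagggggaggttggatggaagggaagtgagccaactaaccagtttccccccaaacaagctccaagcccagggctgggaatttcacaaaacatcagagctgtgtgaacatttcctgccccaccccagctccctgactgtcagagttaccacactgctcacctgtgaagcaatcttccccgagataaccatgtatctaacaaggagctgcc

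The Lcn2 window held both motifs, with the NF-kB match 102 to 93 bases and the C/EBP match 216 to 209 bases before the start. The S100a9 window held the C/EBP motif alone, 236 to 229 bases before the start, and the S100a8 window held neither. Across the promoters of the 8 members the NF-kB motif was found in 3 (Lcn2, Ltf and Mpo) and the C/EBP motif in 4 (Lcn2, S100a9, Ngp and Ltf). Among 32851 promoters of the same length, 45.8% held the first motif and 9.56% the second. STAT (TTCNNNGAA), interferon-response (GAAA, any 2 bases, GAAA) and AP-1 (TGANTCA) motifs were found in 0 of the 8 windows, against 7.02%, 2.98% and 6.75% of all promoters. These matches describe letters in the sequence and say nothing about binding.

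**Figure D1:**
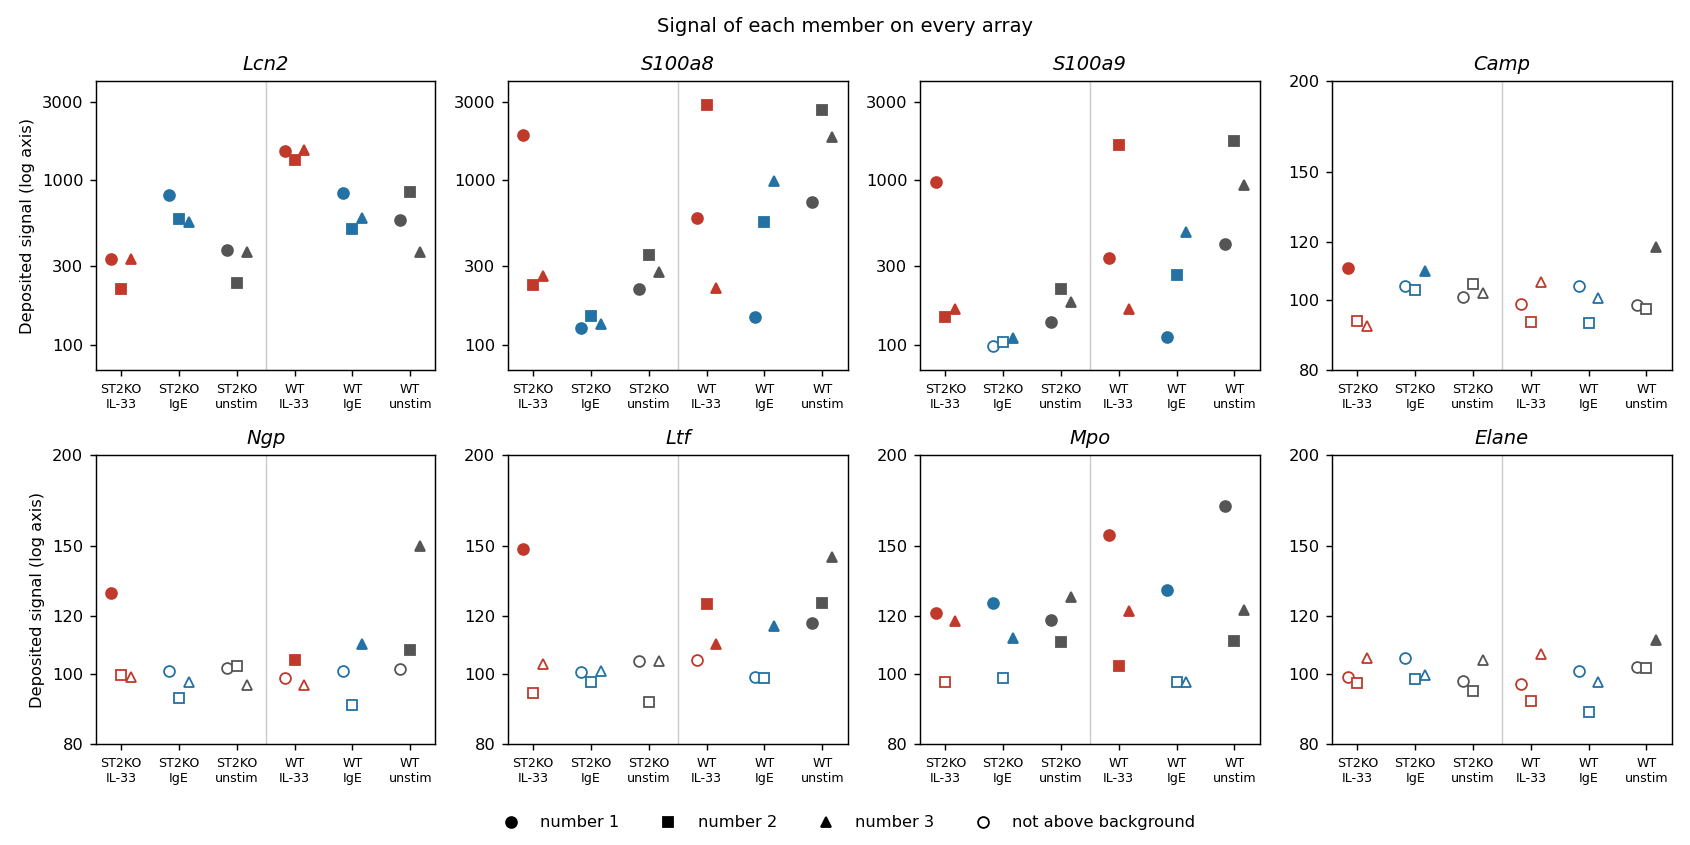
Deposited signal of each member (its brightest probe, log axis) on every array, by group, with ST2KO left of WT and stimulated left of unstimulated cells. Lcn2 was highest on the 3 WT IL-33 arrays (1330.5 to 1529.7), S100a8 and S100a9 were spread widely within groups, and the other members stayed below 171, with open symbols where a probe was not above background.

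Lcn2 separated the WT cells given IL-33 from every other group. Its probe was above background on all 18 arrays. In ST2KO cells the signals were 333, 218 and 333 after IL-33, 808, 579.6 and 560.3 after IgE, and 375, 239 and 365 without stimulation. In WT cells they were 1512, 1330.5 and 1529.7 after IL-33, 835, 502 and 593 after IgE, and 573, 849 and 365 without stimulation. All 3 WT IL-33 arrays lay above all 15 others. After normalization, group means on the log2 scale ran from 10.46 ± 0.0046 (SD, n = 3) in WT cells given IL-33 through 9.16 ± 0.29 in ST2KO IgE, 9.12 ± 0.37 in WT IgE and 8.83 ± 0.66 in unstimulated WT cells to 7.79 ± 0.54 in unstimulated ST2KO cells and 7.74 ± 0.45 in ST2KO cells given IL-33. In that order the IgE groups and the unstimulated WT group overlapped one another, as did the last pair.

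After IL-33, Lcn2 was 3.10-fold higher in stimulated than in unstimulated WT cells, a log2 difference of 1.63 ± 0.31 (SE, limma adjusted p = 0.00363). It was 1 of 7 members tested that passed an adjusted p of 0.05, where 3.78% of all 9973 genes tested passed, and nothing is read from that count. The call held in each of 15 alternative settings, with adjusted p between 0.000475 and 0.03. In ST2KO cells the same comparison gave a difference of -0.05 ± 0.31 (adjusted p = 1, 95% interval -0.71 to 0.61), and the arrays overlapped. There 0 members and 0% of all genes passed in limma, with 0 members and 274 genes at an unadjusted p under 0.05. The difference between the ST2KO and WT responses was -1.68 ± 0.44 and did not pass (adjusted p = 0.0695, unadjusted p = 0.00139). Over 21 alternatives its adjusted p ran between 0.00927 and 0.202, and 6 passed, namely no background correction, the label number as a block (adjusted p = 0.02), array weights, without the WT arrays of number 2, and without the unstimulated array of number 2 of either genotype. For that difference between responses 0 of 7 members and 1.76% of all genes passed in limma, with Lcn2 the 1 member at an unadjusted p under 0.05. Compared directly after IL-33, the Lcn2 level was 6.602-fold lower in ST2KO than in WT cells (log2 difference -2.72 ± 0.31, adjusted p = 1.55e-05), and 1 of 7 members passed where 6.07% of all genes did.

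After IgE, Lcn2 passed in ST2KO cells and not in WT cells. In ST2KO cells Lcn2 was 2.58-fold higher after IgE than without stimulation (log2 difference 1.37 ± 0.31, limma adjusted p = 0.00144), with no overlap between the arrays and a call in all 15 alternatives. It was 1 of 7 members to pass, where 49.2% of all genes passed. In WT cells the difference was 0.29 ± 0.31 (adjusted p = 0.484, 95% interval -0.37 to 0.95). There 0 of 7 members passed in limma, where 47.0% of all genes did, and S100a9 alone reached an unadjusted p under 0.05. The arrays of the same label number went different ways in WT, with Lcn2 higher after IgE by 0.88 and 0.68 for numbers 1 and 3 and a log2 difference of -0.70 for number 2. The WT unstimulated array of number 2 had the highest Lcn2 signal among the 6 unstimulated arrays. The difference between the ST2KO and WT responses to IgE was 1.08 ± 0.44 and did not pass (adjusted p = 0.982, unadjusted p = 0.0253). In that test 0 of 7 members and 0% of all genes passed in limma, with 434 genes at an unadjusted p under 0.05. After IgE the log2 difference between ST2KO and WT cells was 0.04 ± 0.31 (95% interval -0.62 to 0.70). Without stimulation it was -1.04 ± 0.31 (adjusted p = 0.553). Their normalized levels did not overlap, though the deposited signal of 375 on 1 ST2KO array lay above the 365 on 1 WT array.

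**Figure D2:**
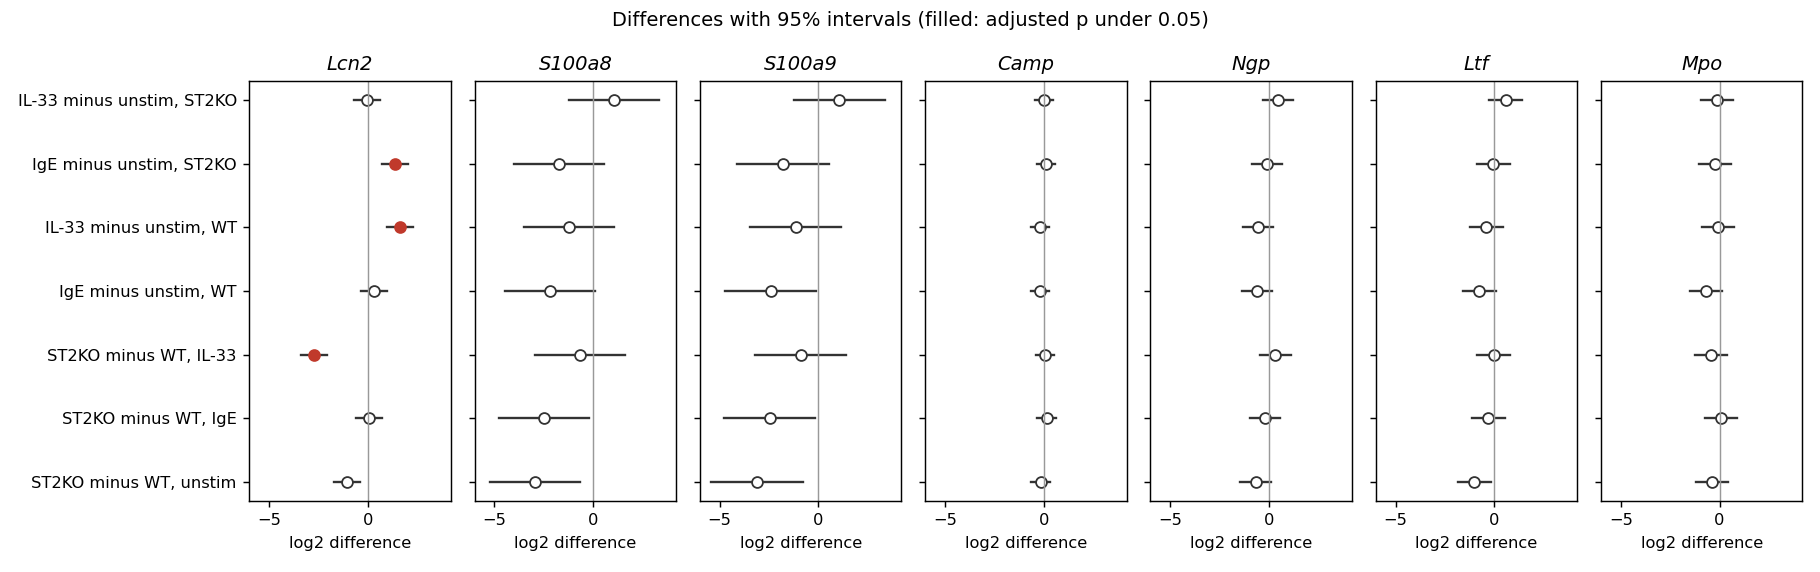
Log2 differences with 95% intervals from limma for the 7 members tested in 7 comparisons, the first 4 stimulated minus unstimulated cells and the last 3 ST2KO minus WT. Lcn2 alone has filled points, at 1.37 (IgE, ST2KO), 1.63 (IL-33, WT) and -2.72 (ST2KO minus WT after IL-33), while the intervals of S100a8 and S100a9 span 4 log2 units or more.

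S100a8, above background on all 18 arrays, varied widely between arrays of a group. In ST2KO cells its signals were 1892, 231 and 260.3 after IL-33, 126, 149.8 and 134 after IgE, and 219, 351 and 279 without stimulation. In WT cells they were 592, 2842 and 223 after IL-33, 147, 557 and 989.8 after IgE, and 739.9, 2678 and 1838 without stimulation. Both IL-33 groups held 1 array far above the other two, number 1 in ST2KO and number 2 in WT. The 3 ST2KO IgE arrays were tight and held 3 of the 4 lowest signals of the 18. Group means ran from 10.45 ± 1.21 (log2, SD, n = 3) in unstimulated WT cells through 9.23 ± 2.23 in WT IL-33, 8.56 ± 2.02 in ST2KO IL-33, 8.29 ± 1.95 in WT IgE and 7.51 ± 0.44 in unstimulated ST2KO cells to 5.80 ± 0.35 in ST2KO IgE. Neighbours in that order overlapped, other than the last pair.

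S100a9 followed S100a8 from array to array. In ST2KO cells its signals were 980.3, 147 and 166 after IL-33, 98.98, 104 and 109.9 after IgE, where 1 of 3 arrays was above background, and 138, 218 and 182 without stimulation. In WT cells they were 335, 1635 and 165 after IL-33, 112, 266 and 486 after IgE, and 407, 1739 and 931 without stimulation. The same ST2KO IL-33 and WT IL-33 arrays stood out as for S100a8. Across the 18 arrays the log2 levels of the pair had a Pearson r of 0.996 and a Spearman rho of 0.983, and r was 0.993 for the deviations from the group means. These points share groups and label numbers, so the values describe these arrays only. The spread within groups (pooled SD of log2 levels) was 1.58 for S100a9 and 1.56 for S100a8, ranks 2 and 3 of 9973 genes, against a median of 0.187. Cxcl10, an interferon-induced chemokine gene, had rank 1 at 1.59, and Ifit3, Cmpk2, Rsad2, Usp18 and Isg15, all interferon-induced, had ranks 4 to 8.

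In the main fit all 6 groups shared 1 estimate of spread per gene, and 0 of the tests of S100a8 or S100a9 passed. After IgE the log2 differences from unstimulated cells were -1.71 ± 1.08 for S100a8 and -1.79 ± 1.09 for S100a9 in ST2KO cells (limma adjusted p = 0.21 and 0.194), and -2.16 ± 1.08 and -2.42 ± 1.09 in WT cells (adjusted p = 0.112 and 0.0795). The IgE array was below the unstimulated array of the same number in 6 of 6 pairs for S100a8. Those differences were -1.62, -1.80 and -1.69 in ST2KO and -3.00, -2.31 and -1.17 in WT. S100a9 showed the same direction in 6 of 6 pairs, at -1.42, -2.33 and -1.62 in ST2KO and -3.05, -2.97 and -1.25 in WT. Without the unstimulated array of number 1 or the IgE array of number 3, S100a9 passed in WT (adjusted p = 0.0414 and 0.0419). Without the WT IgE array of number 1 the differences shrank to -1.06 for S100a8 and -1.38 for S100a9 (adjusted p = 0.466 and 0.348). In ST2KO, where 1 of 3 IgE arrays was above background for S100a9, the differences were -0.95 and -0.71 without background correction. With the label number as a block, S100a9 passed in WT (adjusted p = 0.0476), as did Mpo (-0.68, adjusted p = 0.00196), which had an adjusted p of 0.161 without the block. With only the 2 groups compared in the fit, S100a8 and S100a9 passed in ST2KO (adjusted p = 0.000305 and 0.000452). The SDs of the ST2KO IgE and unstimulated groups were 0.35 and 0.44 for S100a8 and 0.26 and 0.59 for S100a9. Pooled over all groups they were 1.56 and 1.58, so the ± values of the main fit overstate the spread of those ST2KO arrays.

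After IL-33 the pairs disagreed. In ST2KO cells the log2 difference of S100a8 was 1.06 ± 1.08 (limma adjusted p = 1), made of 3.82, -0.59 and -0.07 for numbers 1, 2 and 3, and it was -0.11 without the IL-33 array of number 1. In WT cells the difference was -1.22 ± 1.08 (adjusted p = 0.689), made of -0.12, 0.22 and -3.77, and it was -0.18 without the IL-33 array of number 3 and -2.40 without that of number 2. S100a9 gave 4.10, -0.76 and -0.15 in ST2KO and -0.08, 0.12 and -3.48 in WT. In each genotype 1 pair was far from the other two.

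Between genotypes, ST2KO means lay below WT means for both genes without stimulation and after IgE, and the sign after IL-33 rested on 1 array. Without stimulation the log2 differences were -2.94 ± 1.08 for S100a8 and -3.11 ± 1.09 for S100a9, with no overlap between the arrays (limma adjusted p = 0.553 each). After IgE they were -2.49 ± 1.08 and -2.47 ± 1.09 (adjusted p = 0.598 each), and after IL-33 -0.67 ± 1.08 and -0.90 ± 1.09 (adjusted p = 0.807 and 0.726). Without the WT IL-33 array of number 2 the last pair turned to 0.51 and 0.30. Without stimulation all 7 members tested had negative fitted differences and 4 (Lcn2, S100a8, S100a9 and Ltf) did not overlap. Among all genes 6.36% did not overlap in that direction. The count of members that passed was 0, with 0% of all genes in limma, while those 4 members and 832 genes had an unadjusted p under 0.05. After IgE 0 of 7 members and 0.0201% of all genes passed in limma, with S100a8 and S100a9 at an unadjusted p under 0.05.

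**Figure D3:**
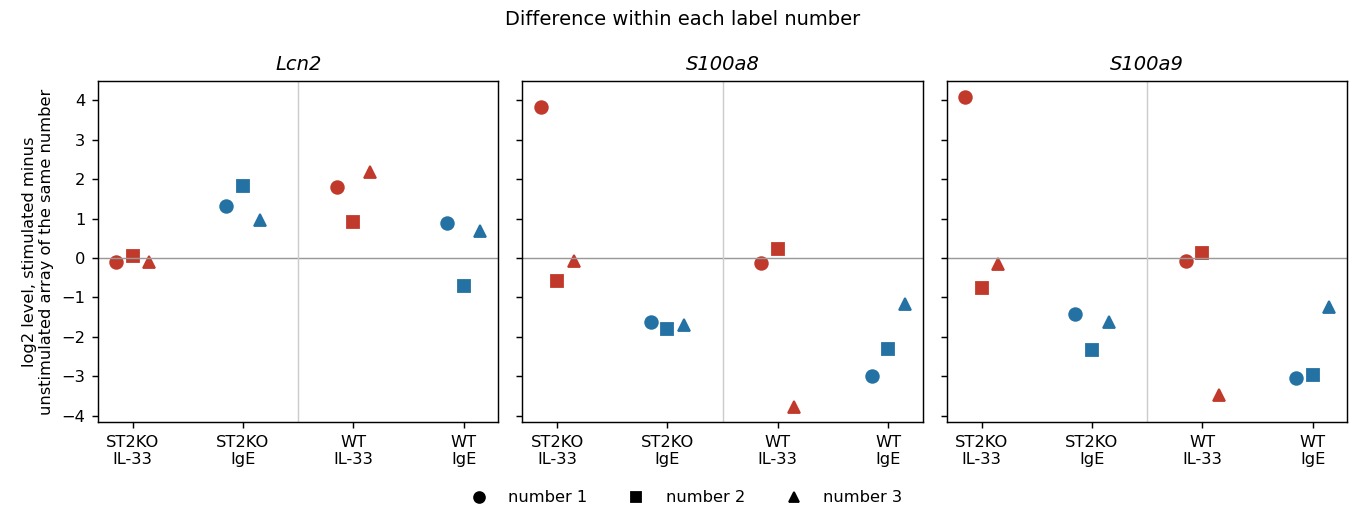
Log2 level of the stimulated minus the unstimulated array of the same label number, for Lcn2, S100a8 and S100a9, with ST2KO left of WT. For S100a8 and S100a9 the 6 IgE points lie below 0, while the IL-33 points reach 3.82 and 4.10 in ST2KO number 1 and -3.77 and -3.48 in WT number 3.

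Markers of other cell types were read beside these values. The summed linear level of the 13 mature neutrophil markers tested was 2536 to 2838 after IL-33, 6010.3 to 6460.4 after IgE and 2538 to 3062 without stimulation in ST2KO cells. In WT cells the sums were 5861 to 6470 after IL-33, 6209 to 6915 after IgE and 2694 to 4736 without stimulation. These sums lean on a few bright probes such as Ncf4, which had 2898, 3200.0 and 2798 after IgE in ST2KO, against 1212, 1080.02 and 1068 without stimulation, so they do not describe the markers as a group. Within the IL-33 groups the array with the most S100a8 also had the highest sum, at 2838 for ST2KO number 1, against 2536 and 2750 for the other two, and at 6470 for WT number 2, against 6317 and 5861. Among unstimulated WT arrays the sums were 3753, 4736 and 2694 for numbers 1, 2 and 3, and number 3, second in S100a8, had the lowest. In WT IgE the array with the least S100a8 (number 1) had the highest sum, 6915, and in unstimulated ST2KO the array with the most (number 2) had the lowest, 2538. The sums of the 10 macrophage and monocyte markers tested were 4467, 3897 and 4189 on the ST2KO IL-33 arrays and 4751, 5044 and 5199 on the WT IL-33 arrays. In ST2KO they were 4150, 3376 and 3794 after IgE and 4299, 4115 and 4858 without stimulation. In WT they were 4713, 5339 and 4137 after IgE and 4871, 5955 and 4671 without stimulation, with number 2 the highest in both. These sums lean on Adgre1, with signals of up to 5325. The sums of the 4 eosinophil markers tested set WT number 2 apart in all 3 states, at 1109 after IL-33 (numbers 1 and 3 had 204 and 301), 752 after IgE (141 and 345) and 741 without stimulation (151 and 336). The sums on ST2KO arrays were 142 to 408. Prg2, the eosinophil major basic protein gene, had signals of 997, 705 and 796 on the WT number 2 arrays after IL-33, after IgE and without stimulation. The eosinophil sums rest mostly on this gene. The other markers summed, Ear6, Il5ra and Alox15, did not exceed signals of 153, 115 and 118. Prg3, Epx and Siglecf were above background on no array, so the sums do not describe the eosinophil markers as a group. WT number 2 was also the array with the most S100a8 and S100a9 after IL-33 and without stimulation, though not after IgE. The part of other cell types in these values was not tested.

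Each member was set against all other genes by the Pearson correlation of log2 levels over the 18 arrays, as a description of arrays that share groups and label numbers. The genes most like S100a8 were Rnf31, a ubiquitin ligase gene (r = 0.916), and the interferon-response genes Irf7 and Usp18 (0.911 and 0.909). Those most like S100a9 were the interferon-induced Cmpk2, Trim21 and Adar (0.917, 0.914 and 0.911). For deviations from the group means r was 0.865, 0.813 and 0.819 with S100a8 and 0.825, 0.828 and 0.806 with S100a9, in the same order. Usp18 had signals of 1872, 737 and 387 after IL-33 in ST2KO cells, against 606, 766 and 334 without stimulation. In WT cells it had 1483, 5052 and 754 after IL-33, against 1433, 5882 and 2014 without stimulation. As for S100a8, number 1 was the highest of the ST2KO IL-33 arrays and number 2 of the WT IL-33 arrays. After IgE Usp18 had 249, 453 and 233 in ST2KO, highest on number 2 as for S100a8. In WT it had 375, 2695 and 891 after IgE, highest on number 2, where S100a8 was highest on number 3.

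Lcn2 had other companions. Serpinb2, a serine protease inhibitor gene (r = 0.936), Acod1, the enzyme that makes itaconate (0.903), and Ttc39a (0.901) were closest to it. For deviations from the group means r was lower, at 0.698, 0.526 and 0.617 in that order, so the differences between groups carry part of the likeness. Serpinb2 had signals of 418, 419.8 and 522 in ST2KO and 2547, 2623 and 2300.3 in WT cells after IL-33, against 402, 435 and 502 in unstimulated ST2KO and 583, 1095 and 464 in unstimulated WT cells. Its 3 WT IL-33 arrays lay above all 15 others, as those of Lcn2 did. S100a8 and Lcn2 had an r of 0.102 with each other over the 18 arrays. It was -0.569 within ST2KO, -0.165 within WT and -0.022 for deviations from the group means.

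**Figure D4:**
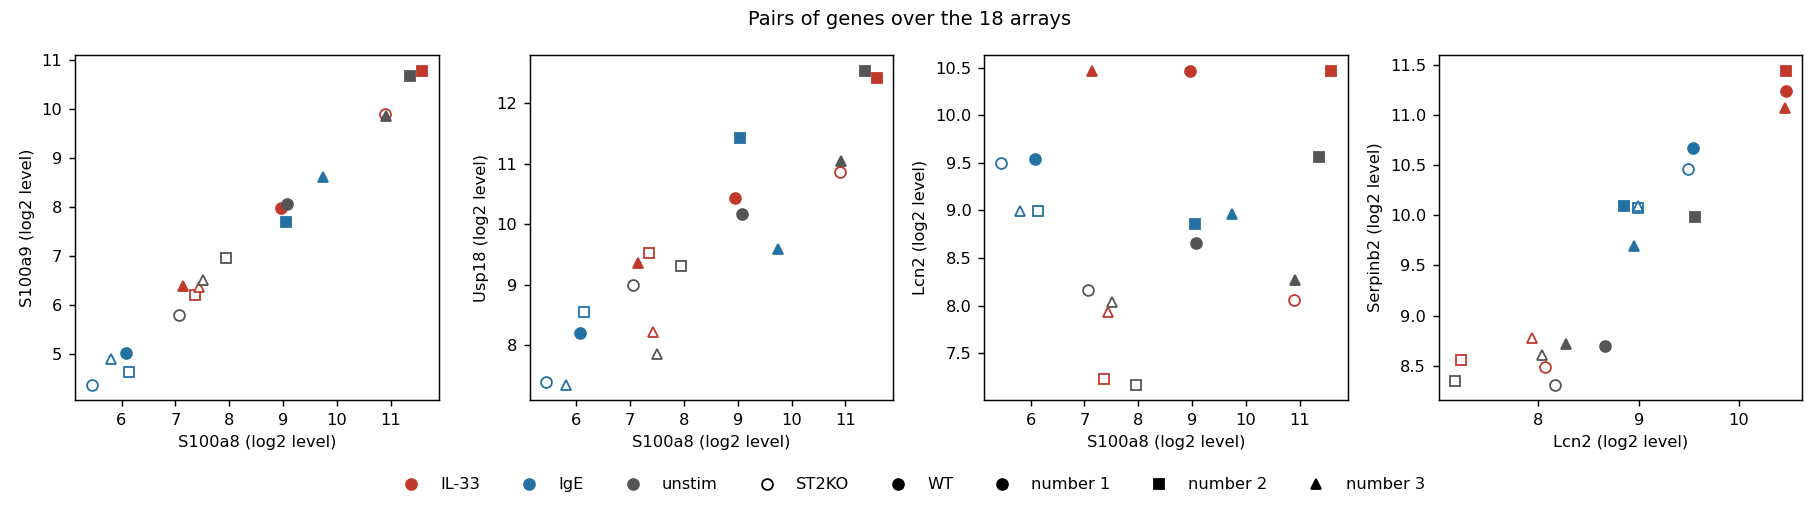
Log2 levels of pairs of genes on the 18 arrays, coloured by stimulus, open for ST2KO and filled for WT, with a symbol for each label number. S100a8 ran with S100a9 (r = 0.996) and Usp18 (0.909), and Lcn2 ran with Serpinb2 (0.936). S100a8 and Lcn2 had an r of 0.102 over all arrays, -0.569 within ST2KO and -0.165 within WT.

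The secondary granule genes Camp, Ngp and Ltf lay close to background. The RefSeq annotation places them on chromosome 9, with 8 protein-coding genes between Camp and Ngp and 20 between Ngp and Ltf. Ltf, which encodes the iron-binding lactoferrin, had signals of 148.7, 94.2 and 103 after IL-33, 101, 97.4 and 101 after IgE and 104, 91.5 and 104 without stimulation in ST2KO cells. In WT cells it had 105, 125 and 109.9 after IL-33, 98.9, 98.8 and 116 after IgE, and 117, 125 and 145 without stimulation. Unstimulated WT arrays were above background in 3 of 3 and unstimulated ST2KO arrays in 0 of 3. Set against the lowest signal above background, Ltf was at least 1.66-fold lower in unstimulated ST2KO than in WT cells, with fitted means of 4.50 and 5.52 on the log2 scale (adjusted p = 0.553). Such a bound takes the dimmest probe above background on each array as the level of the dim group. A second Ltf probe was above background on 0 arrays.

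Ngp was above background on 5 arrays. It reached a signal of 129 on the ST2KO IL-33 array of number 1 and of 150.2 on the unstimulated WT array of number 3, and lay between 90.6 and 110.02 on the other 16. Camp was above background on 3 arrays, at 111 and 109.6 in ST2KO (IL-33 number 1 and IgE number 3) and 118 in WT (unstimulated number 3). The ST2KO IL-33 array of number 1 was thus high for S100a8, S100a9, Ltf and Ngp. Across arrays Ltf had an r of 0.850 with S100a8 and 0.875 with Ngp, and Ngp had 0.745 with Camp. Spearman's rho was 0.503 for Ngp and Ltf and 0.203 for Ngp and Camp, most of whose values were at background. After stimulation in WT the log2 differences of Ngp and Ltf lay between -0.77 (Ltf, IgE) and -0.39 (Ltf, IL-33), and 0 passed. Unstimulated ST2KO cells had 0 of 3 arrays above background for Camp, Ngp and Ltf. After IL-33 1 of 3 ST2KO arrays, number 1, was above background for each of these genes, so no fold is given. The fitted log2 differences of Ltf and Ngp were 0.59 and 0.45 (limma adjusted p = 1 each), and that of Ltf was 0.03 without that array.

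The primary granule genes Mpo and Elane also lay near background. Mpo had 4 probes, above background on 14, 3, 2 and 0 arrays. On the first, signals were 121, 97.5 and 118 after IL-33, 125, 98.9 and 112 after IgE and 119, 111 and 128 without stimulation in ST2KO cells. In WT cells they were 155, 102 and 122 after IL-33, 130.3, 97.6 and 97.5 after IgE, and 170.5, 111 and 123 without stimulation. The groups overlapped in every comparison, and the WT arrays of number 1 were the highest of their groups. After IgE in WT the second kept probe had a log2 difference of -0.11 ± 0.21, against -0.68 ± 0.38 for the first. Elane had 1 probe, above background on 1 array (unstimulated WT number 3, signal 111), with 88.7 to 107 on the others, and was not tested. In the annotation Elane neighbours Prtn3, the primary granule protease gene, which was above background on 2 arrays.

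Other granule genes were measured beside the members. Of the primary granule list of 11 genes 6 were tested, and after IL-33 0 passed in either genotype. Of all genes 0% in ST2KO and 3.78% in WT passed after IL-33. After IgE in ST2KO cells 2 were higher and 1 lower, and in WT cells 1 was higher and 1 lower, where 49.2% and 47.0% of all genes passed. Ctsg, the cathepsin G gene, fell by 0.41 in ST2KO and fell by 0.44 in WT (log2, SE 0.10, limma adjusted p = 0.00222 and 0.00146). Serpinb1a, an inhibitor of neutrophil proteases, rose by 0.92 ± 0.19 in ST2KO and 1.04 ± 0.19 in WT (adjusted p = 0.000665 and 0.000228). Of 13 secondary and tertiary granule genes tested 0 passed after IL-33 in either genotype, beside the same IL-33 shares over all genes. After IgE 4 were higher and 2 lower in ST2KO, against 2 and 1 in WT, with the same shares over all genes. In WT Anxa1, the annexin A1 gene, fell by 2.20 ± 0.16 (adjusted p = 1.03e-08) and Cyba, a subunit of the phagocyte oxidase, rose by 0.66 ± 0.11 (adjusted p = 6.55e-05). The median log2 difference of that list after IgE in WT was -0.14, against -0.02 for all genes.

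Of 10 other S100 family genes tested 0 passed after IL-33 in either genotype, and after IgE S100a10, the annexin A2 partner, was the 1 that passed. Of all genes 0% in ST2KO and 3.78% in WT passed after IL-33, and 49.2% and 47.0% after IgE. It fell by 0.88 ± 0.18 in ST2KO and 1.13 ± 0.18 in WT (limma adjusted p = 0.000501 and 4.7e-05). The median difference of the family after IL-33 in WT was -0.00 (all genes -0.03).

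Receptors for these proteins were measured too. Of 9 genes tested for alarmin and lipocalin receptors and their adaptors 3 were higher and 1 lower after IL-33 in WT, and 0 passed in ST2KO. Of all genes 3.78% passed in WT and 0% in ST2KO. Tlr2 rose by 1.13 ± 0.23 after IL-33 in WT (limma adjusted p = 0.00594, 0.0538 with only the 2 groups fitted). Tlr2 also rose after IgE, by 1.75 ± 0.23 in ST2KO and 2.28 ± 0.23 in WT (adjusted p = 6.43e-06 and 3.5e-07). Of the list 1 was higher and 2 lower after IgE in ST2KO, against 2 and 2 in WT, where 49.2% and 47.0% of all genes passed. Cd14, a co-receptor of Tlr4, rose by 1.38 ± 0.33 after IL-33 in WT (adjusted p = 0.0235), a call lost in 5 alternatives, among them without the unstimulated array of number 1 (adjusted p = 0.124) and without the IL-33 arrays of number 1 or 3 (0.0599 and 0.103). Slc22a17, a receptor for lipocalin 2, was above background on 0 of 3 WT IL-33 arrays and 3 of 3 unstimulated WT arrays, at least 1.26-fold lower (adjusted p = 0.00486), and its call was lost with only the 2 groups fitted (0.0833) and without the WT arrays of number 2 (0.0864).

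A list of inducers, NF-kB subunits and cofactors tied to Lcn2 or the S100 pair, which also holds the restraining RNase gene Zc3h12a, had a median log2 difference of 2.42 after IL-33 in WT, against -0.03 for all genes. Of 10 tested 7 were higher after IL-33 in WT, against 0 in ST2KO, where 3.78% and 0% of all genes passed. After IgE 8 were higher and 1 lower in ST2KO, against 8 and 2 in WT, where 49.2% and 47.0% of all genes passed. Nfkbiz encodes IkB-zeta, a nuclear cofactor of NF-kB needed for Lcn2 induction. After IL-33 its signals were 250.2, 249.9 and 307 in ST2KO and 1823, 1559 and 1912 in WT. Without stimulation they were 259, 346 and 287 in ST2KO and 266, 274 and 231 in WT. Like those of Lcn2, its WT IL-33 arrays lay above every other array. Nfkbiz rose by 3.38 ± 0.25 after IL-33 in WT (limma adjusted p = 1.34e-07), and the difference between the ST2KO and WT responses was -3.42 ± 0.36 (adjusted p = 2e-05). After IgE Nfkbiz rose by 1.35 ± 0.25 in ST2KO and 1.499 ± 0.25 in WT (adjusted p = 0.000287 and 0.000112). The Lcn2 difference after IgE was 1.37 ± 0.31 in ST2KO, where it passed, and 0.29 ± 0.31 in WT, where it did not. A link between Nfkbiz and Lcn2 in these cells was not tested. The cytokine genes Il6 and Il1a rose by 2.85 ± 0.27 and 3.80 ± 0.27 after IL-33 in WT, and by 4.19 ± 0.27 and 6.43 ± 0.27 after IgE in WT.

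Among 12 transcription factors of granulocytes 2 were higher and 1 lower after IL-33 in WT, with 0 in ST2KO, where 3.78% and 0% of all genes passed. Klf5 rose by 0.81 ± 0.16 (limma adjusted p = 0.00605) and Gfi1, a repressor needed for neutrophil formation, fell by 0.60 ± 0.14 (adjusted p = 0.0239). The Klf5 call was lost with only the 2 groups fitted (adjusted p = 0.0563), and the Gfi1 call was lost there and without 5 of the 6 single arrays, with 0.127 at the highest. After IgE 4 were higher and 2 lower in each genotype, where 49.2% of all genes passed in ST2KO and 47.0% in WT. Gfi1 fell by 2.02 ± 0.14 in ST2KO and 1.64 ± 0.14 in WT after IgE (adjusted p = 6.74e-09 and 8.36e-08). The mean log2 level of Runx1 went the other way, from 6.63 without stimulation to 8.25 after IgE in ST2KO and from 6.56 to 8.31 in WT. Of 12 genes for iron and metal handling 1 was higher after IL-33 in WT and 0 passed in ST2KO, beside the same IL-33 shares over all genes. The 1 was Hmox1, which degrades haem, at 1.02 ± 0.21 (adjusted p = 0.00638). After IgE the transferrin receptor gene Tfrc rose by 2.99 ± 0.21 in ST2KO and 3.05 ± 0.21 in WT (adjusted p = 5.18e-09 and 4.99e-09).

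Of the 13 mature neutrophil markers tested 4 were higher after IL-33 in WT and 0 passed in ST2KO, where 3.78% and 0% of all genes passed. After IgE 7 were higher and 1 lower in ST2KO, against 5 and 1 in WT, and 6 of 13 in WT is close to the 47.0% of all genes that passed (49.2% in ST2KO). Ncf4, a subunit of the phagocyte oxidase, rose by 0.68 ± 0.14 after IL-33 in WT (limma adjusted p = 0.00746, 0.153 with only the 2 groups fitted). Stfa1, a stefin gene, had signals of 720.003, 273 and 313 after IgE in WT, against 129, 222 and 117 without stimulation, and rose by 2.39 ± 0.63 (adjusted p = 0.00453). In ST2KO cells Stfa1 was above background on 3 of 3 IgE arrays and 0 of 3 unstimulated arrays, at least 7.29-fold higher (adjusted p = 0.000539). Padi4, which citrullinates histones, fell by 1.84 ± 0.19 in ST2KO and 1.52 ± 0.19 in WT after IgE (adjusted p = 5.09e-07 and 5.12e-06).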

How the data were processed

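RNA from 18 samples was measured on single-colour Illumina bead arrays. Groups and numbers came from the sample labels. The authors deposited an average intensity per probe and array that was not normalized, with a detection p-value beside it, per the file headers. The lowest intensity of an array was 76.2 to 83.7, so background had not been subtracted. The authors' processed log2 values of the same arrays, deposited separately, served as an alternative, with a background correction that no source used here gives.

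Intensities were corrected and quantile normalized with neqc of limma 3.58.1 (R 4.3.3, offset 16), which compresses differences of dim probes. Probes above background on at least 3 arrays were kept (18078). Names came from the platform annotation (34885 probes with 1 symbol, 18 with several, 10378 with none). A RefSeq table held the Entrez identifiers of 34807 and changed 0 symbols. The brightest kept probe stood for each of 9973 genes. Of 12 member probes 8 were kept, for 7 of 8 members. Group means were fitted to all arrays with lmFit and eBayes in 9 contrasts, with Benjamini-Hochberg adjustment over all genes and a threshold of 0.05. Overlap was judged on normalized levels. Where no array of a group was above background, the text gives a lower bound, taken against the dimmest probe above background, or no fold, while the plot of differences and counts of direction use fitted values. The fit was tested on simulated data with independent errors and the same spread of a gene in every group. Unequal spread between groups, as for S100a8 and S100a9, and arrays that deviate together were not covered.

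The members and gene lists were chosen with earlier results of these data known. Genes named with a test besides the members were drawn from the up to 3 of each list with the largest difference among those passing after IL-33 or IgE in WT, and from fixed markers and Nfkbiz. Not all of these are named. The 3 genes most correlated with S100a8, S100a9 and Lcn2 were named with their r. Other genes were picked by hand as examples of probes above or not above background, of bright probes or of a large spread. Arrays of the same number tended to deviate together within genotype. Correlations of deviations from group means were over 0.1 in 15 of 18 pairs, with a range of -0.03 to 0.59. They were so in every pair for IgE against unstimulated cells and for IL-33 in WT, but not for IL-33 in ST2KO (-0.03, 0.05 and 0.26). Between genotypes 12 of 27 pairs of the same number were also over 0.1, with a range of -0.34 to 0.39. The numbers therefore do not by themselves mark shared cultures. Alternatives covered background correction, normalization, the deposited log2 values, the filter, probes, the number as a block, the groups fitted, array weights and arrays left out. Promoter sequences are RefSeq's, build GRCm38.p6. No coordinates of the array design were used.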

Additional observations from a re-analysis of the deposited data

How the results depend on the processing

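Of the counts of members passing, those after IL-33 in WT and in ST2KO, and those between genotypes, were the same under all alternatives run. After IgE in ST2KO the count of 1 became 3 with only the groups compared in the fit (S100a8 and S100a9 joined Lcn2). After IgE in WT the count of 0 became 2 with the replicate block (Mpo and S100a9), and leaving out 1 array gave 0 to 2, with 2 without the unstimulated array of number 1 (Ngp and S100a9) and 1 without the IgE array of number 1 (Mpo) or 3 (S100a9). For the difference between IL-33 responses the count of 0 became 1 (Lcn2) without background correction, with the replicate block (adjusted p = 0.02), with array weights, and without the 3 arrays labelled WT number 2, and leaving out 1 array gave 0 to 1, with 1 without the unstimulated array of number 2 in either genotype. The replicate block changed no other member call. The cause of these shifts was not tested.

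Counts over all genes moved by over 1.5 times in 4 comparisons. After IL-33 in WT 377 genes became 197 (185 higher, 12 lower) with only the groups compared and 641 (424 higher, 217 lower) with array weights, against 300 higher and 77 lower. With array weights the difference between IL-33 responses gave 300 (54 higher, 246 lower) in place of 176 (18 and 158), and ST2KO against WT after IL-33 gave 1347 (679 and 668) in place of 605 (231 and 374), or 357 to 458 with 1 array left out. ST2KO against WT after IgE gave 2 genes, 4 without the filter, 0 with the deposited log2 values, only the groups compared, array weights or without WT number 2, and 0 to 14 with 1 array left out.

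Camp, Ngp, Ltf, Mpo and Elane, and S100a9 in ST2KO after IgE, stood close to the dimmest signal above background on an array, 101 to 113, which limits what their differences can show. The direction of S100a8 and S100a9 after IL-33 in ST2KO turned without the IL-33 array of number 1, and that between genotypes after IL-33 without the WT IL-33 array of number 2. The 95% interval of a difference reached 0.32 (log2) to either side for the median gene.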
